A study of Mus musculus with 6 samples.

Results

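The predicted mouse gene models Gm10800, Gm10801, Gm10718, Gm10722, Gm10717, Gm11168, Gm10721, Gm17535, Gm10715 and Gm10719, which carry satellite-like sequence, were described in RNA pulled down from quiescent neural progenitor cells. The 10 models are 10 of 55416 gene IDs counted and 10 of the 27659 IDs with a count in any library, and all 10 IDs were matched through their symbols. They had been chosen for shared repeat sequence and with their EU and PBS counts in these same libraries in view, so their EU and PBS values are a description, and no test on them is read as evidence. EU cells were mouse neural progenitor cells from embryonic brain, kept quiescent with FGF2 (10 ng/ml) plus Bmp4 (20 ng/ml), given 5-ethynyluridine (EU) at 250 µM on day 1 of quiescence and harvested on day 8. PBS cells shared origin, medium, timing and pulldown and received the vehicle without EU. Each group had 3 libraries. The labels name no strain, genotype or age, and do not say whether the libraries of a group came from separate cultures, so the spread between them may be technical.

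Mouse pericentromeric heterochromatin is built on the major satellite, an AT-rich repeat in long tandem arrays beside the centromeres of most chromosomes. It is packed by trimethylation of histone H3 at lysine 9 and by HP1 proteins, is transcribed at low levels from either strand, and its RNA stays largely in the nucleus, where it can bind the chromatin that made it. No role is known for the proteins that the models would encode. EU is a uridine analogue that cells build into new RNA and to which biotin can be attached by click chemistry. Streptavidin beads then collect RNA that still carries it, here 7 days after it was given, and the PBS pulldowns measured what the beads collect without label. The study asked which RNAs made at the onset of quiescence were still there a week later. Its own account of satellite RNA was not among the sources used here, and the values below are not set against it.

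The transcripts of 4 models are shown first because the repeat they share decides how their counts can be read. Gm10800 and Gm10801 are annotated on chromosome 2 and the other 8 on chromosome 9, and all 10 are annotated as protein-coding. Each line is a window of 234 bases around the longest run common to all 10 models, 5′ to 3′ in transcript orientation (GENCODE M21, build GRCm38). The windows span transcript bases 132 to 365 of Gm10800 (minus strand), 1 to 234 of Gm10801 (plus strand), 141 to 374 of Gm10718 (plus strand) and 144 to 377 of Gm10717 (plus strand), and capitals mark bases inside 31-base words that every one of the 10 models holds.
Gm10800: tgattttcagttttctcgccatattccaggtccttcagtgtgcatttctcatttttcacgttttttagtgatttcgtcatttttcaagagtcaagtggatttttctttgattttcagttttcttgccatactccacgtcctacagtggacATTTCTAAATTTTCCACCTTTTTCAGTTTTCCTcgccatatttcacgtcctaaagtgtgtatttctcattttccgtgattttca
Gm10801: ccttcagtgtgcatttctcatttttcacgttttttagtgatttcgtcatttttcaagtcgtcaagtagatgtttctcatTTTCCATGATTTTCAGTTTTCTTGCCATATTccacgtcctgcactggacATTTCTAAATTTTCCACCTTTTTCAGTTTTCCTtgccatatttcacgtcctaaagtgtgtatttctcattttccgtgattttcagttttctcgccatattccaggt
Gm10718: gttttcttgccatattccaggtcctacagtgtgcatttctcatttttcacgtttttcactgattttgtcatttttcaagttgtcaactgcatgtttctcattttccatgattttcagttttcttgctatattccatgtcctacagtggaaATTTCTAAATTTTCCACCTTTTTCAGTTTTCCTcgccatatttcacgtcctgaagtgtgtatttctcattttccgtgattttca
Gm10717: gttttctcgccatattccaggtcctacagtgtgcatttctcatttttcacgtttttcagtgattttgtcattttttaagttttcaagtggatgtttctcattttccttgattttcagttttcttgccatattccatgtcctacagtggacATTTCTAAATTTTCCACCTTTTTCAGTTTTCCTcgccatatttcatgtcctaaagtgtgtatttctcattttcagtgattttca

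The words in capitals merge into 2 runs. The run of 33 bases, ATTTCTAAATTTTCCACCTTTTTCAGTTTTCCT, stood in all 4 windows. It occurred on either strand in 12 of 55450 annotated genes, which were the 10 models, Gm10720 and Gm26870. The run of 31 bases, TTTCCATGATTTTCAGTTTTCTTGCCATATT, stood in the window of Gm10801 and occurred in the 10 models, Gm21738 and Gm26870. Each of the runs was therefore found in 0.0216% of annotated genes.

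The models repeat themselves internally. Compared with itself at every shift from 20 to 259 bases, the longest transcript of 7 of the 10 models, all on chromosome 9, matched best at a shift of 234 bases. At that shift 61.7% to 67.6% of bases were identical in those 7. The best shift was 225 bases in Gm10800, 231 in Gm10801 and 237 in Gm11168, with 56.3%, 52.7% and 62.9% of bases identical at it. At 234 bases these 3 matched less, at 43.0% in Gm10800, 36.7% in Gm10801 and 32.9% in Gm11168. The unit of the mouse major satellite is known to be 234 bases long. The models were not aligned to a satellite consensus, so the label satellite-like rests here on the repeat length in 7 models, and for Gm10800, Gm10801 and Gm11168 on a repeat of near length and on shared words and base composition.

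All 10 models share one orientation. Their annotated strands differ, with Gm10800 on the minus strand of chromosome 2 and Gm10801 on its plus strand, yet every model carries the T-rich strand of the repeat as its transcript. T, which is U in RNA, made up 45.8% to 47.4% of the longest transcript of each model. Across the 12439 tested genes with a transcript in the annotation the median was 25.2%, with a 5th percentile of 19.2% and a 95th percentile of 31.9%. No tested gene outside the models reached their range, and the highest stood at 43.7%. T content is set by the repeat that served to choose the models, so this is no separate finding.

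**Figure D1:**
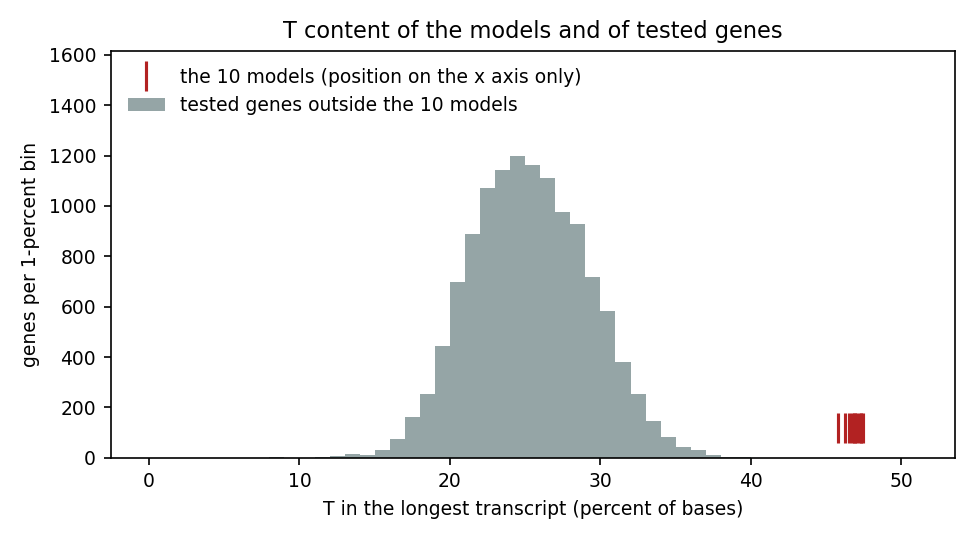
Histogram of the T content of the longest annotated transcript (x axis, percent of bases) for tested genes outside the models (grey bars, y axis, genes per 1-percent bin), with red ticks at the T content of the 10 models. The ticks lie between 45.8% and 47.4%, above every grey bar, with the last grey gene at 43.7%.

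Reads from one model can often not be told from those of another. Of the 31-base words of the chromosome 9 models, 16.8% to 89.8% occurred in another chromosome 9 model on the same strand (median 35.4% over 56 ordered pairs). Gm10800 and Gm10801 shared 25.2% and 29.3% of their words with one another, and 8.35% to 25.4% with single chromosome 9 models. The share of words found in no other annotated gene on either strand was highest in Gm10801 (63.8%) and Gm10800 (58.0%), stood at 44.7% in Gm10717 and was lowest in Gm17535 (6.72%). Gm10718, the third most abundant model in PBS, held 15.2%. Words were compared with annotated transcripts only, so words counted as unique here may still occur elsewhere in the genome. The sources used here do not give how reads with several matches were counted, or whether strand was used. The values of single models are therefore uncertain, and the effect of these settings on the sums was not tested.

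Outside the 10 models, 3 annotated genes shared at least 5% of their 31-base words with them, and the same 3 were found with 50-base words. Gm10720, a protein-coding model on chromosome 9, had 94.4% of its words in the 10 models on the same strand. Gm21738, a protein-coding model on chromosome 14, had 43.6% on the same strand. Gm26870, a long intergenic noncoding RNA on chromosome 9, had 75.2% on the opposite strand and so carries the A-rich strand of the repeat. Of these only Gm10720 was analysed here. It had 0, 0 and 0 counts in EU replicates 1 to 3, and 1, 1 and 0 counts in PBS replicates 1 to 3, and both groups lie under the floor of 3 counts per library, so no fold is given. Gm21738 and Gm26870 were not analysed here.

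**Figure D2:**
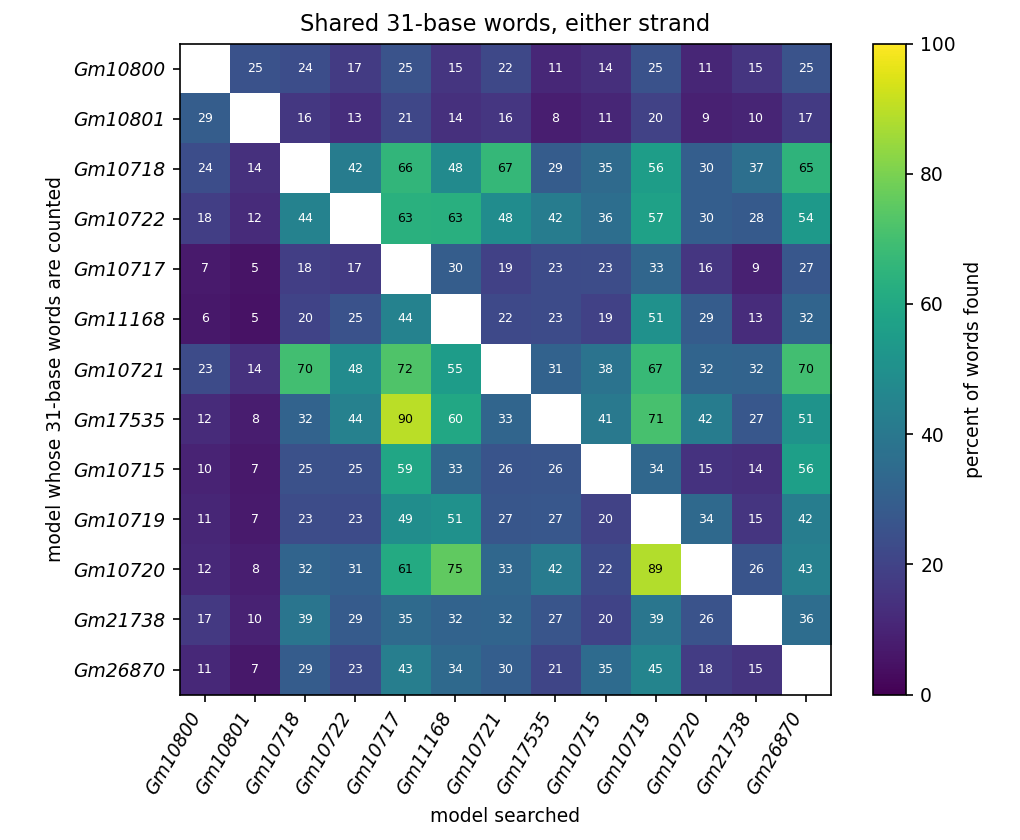
Percent of the 31-base words of each model (rows) that occur in each other model (columns), taking the strand with more matches. The 13 rows are the 10 models followed by Gm10720, Gm21738 and Gm26870. Shares among the 8 chromosome 9 models reach 89.8%.

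The libraries differed widely in depth. Deposited totals were 9564856, 26479031 and 23527595 counts in EU replicates 1 to 3, and 647416, 413181 and 729649 counts in PBS replicates 1 to 3. A floor of 3 counts was worth 0.113 to 0.314 CPM (library share, in counts per 1000000 counts of the library) in EU and 4.11 to 7.26 CPM in PBS. CPM below is the share of the deposited total, without further scaling, unless stated. Intervals are exact 95% Clopper-Pearson intervals and cover counting error only. Markers of neural progenitors summed to 5419 to 7241 CPM in EU and 6075 to 6683 CPM in PBS after scaling by TMM factors (edgeR's trimmed-mean scaling). The microglial genes Aif1, Cx3cr1 and Csf1r were at 0 in every library. Ptprc, the other microglial marker listed, was at 0 in EU and at 0 to 1.58 CPM in PBS. The summed markers of quiescent astroglia were lower in EU, at 5132 to 11070 CPM, against 11279 to 19831 CPM in PBS, and those of the oligodendrocyte lineage were higher in EU, at 1163 to 1765 CPM, against 702 to 906 CPM in PBS. All 8 astroglial and 7 oligodendrocyte markers had counts, and the part of either shift in the values of the models was not tested. Neuronal markers summed to 534 to 661 CPM in EU and 555 to 797 CPM in PBS, and vascular and fibroblast markers, with Cldn5 and Col3a1 at 0, to 1.76 to 5.08 CPM in EU and 0 to 9.47 CPM in PBS.

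Summed over the 10 models, EU libraries held a small fraction of the PBS share. The sum was 120, 136 and 234 counts in EU replicates 1 to 3, and 951, 1050 and 1189 counts in PBS replicates 1 to 3. The 3 EU libraries lay below the 3 PBS libraries even before division by the library totals, although each EU library was many times deeper. As library shares the sums were 12.5, 5.14 and 9.95 CPM in EU, and 1469, 2541 and 1629.5 CPM in PBS. The mean was 9.21 ± 3.76 CPM in EU, against 1879.9 ± 578 CPM in PBS (SD, n = 3 each), so that the EU mean was 0.490% of the PBS mean, a log2 ratio of -7.67. PBS values are what the beads collected without label, so this ratio is not a ratio of RNA levels in the cells. In such bulk pulldowns fewer cells that make an RNA and less of it per cell can also not be told apart. A lower share can also not be told apart from a larger amount of other RNA in the same library.

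**Figure D3:**
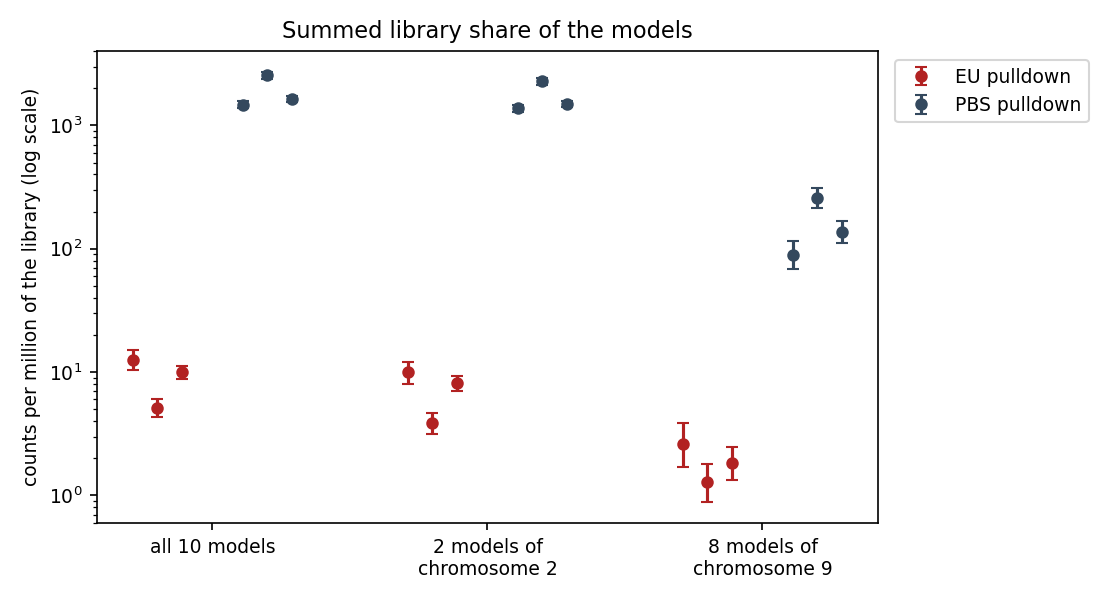
Summed share of the models in each library (y axis, CPM on a log scale) for all 10 models, the pair on chromosome 2 and the 8 on chromosome 9, with EU left of PBS in each set; bars are 95% exact intervals for counting error. The all-model sums lie at 5.14 to 12.5 CPM in EU and at 1469 to 2541 CPM in PBS.

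The chromosome 2 pair and the chromosome 9 models went the same way. This division was made after the values had been seen. Gm10800 and Gm10801 together had 95, 102 and 191 counts in EU and 893, 943 and 1089 counts in PBS, or 7.30 ± 3.12 CPM in EU, against 1718 ± 492 CPM in PBS (SD, n = 3 each; log2 ratio -7.88). The 8 chromosome 9 models together had 25, 34 and 43 counts in EU and 58, 107 and 100 counts in PBS, or 1.91 ± 0.669 CPM in EU, against 162 ± 87.4 CPM in PBS (SD, n = 3 each; log2 ratio -6.41). In both sets the EU libraries lay below the PBS libraries by count and by share. For chromosome 9 the separation by count rested on Gm10718. The sum of the 7 models below Gm10718 had 21, 25 and 30 counts in EU, against 29, 65 and 53 counts in PBS. These overlapped by count and were separate by share (log2 ratio of mean shares -5.96). Without Gm10800, the other 9 models still had 33, 46 and 68 counts in EU, against 140, 227 and 185 counts in PBS (log2 ratio of mean shares -6.98).

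Gm10800 (ENSMUSG00000075014) carried most of the signal. It had 87, 90 and 166 counts in EU replicates 1 to 3, and 811, 823 and 1004 counts in PBS replicates 1 to 3. As a share this was 9.10, 3.40 and 7.06 CPM in EU, and 1253, 1992 and 1376 CPM in PBS, with means of 6.52 ± 2.89 in EU and 1540.2 ± 396 in PBS (SD, n = 3 each; log2 ratio -7.88). The groups did not overlap, and PBS replicate 2, with a 95% interval of 1858 to 2133 CPM, stood above PBS replicates 1 (1168 to 1342 CPM) and 3 (1292 to 1464 CPM). Ranked by share among all counted genes, Gm10800 came 8393rd, 11719th and 9433rd in EU replicates 1 to 3, and 54th, 29th and 43rd in PBS replicates 1 to 3.

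Gm10801 (ENSMUSG00000075015), the other chromosome 2 model, had 8, 12 and 25 counts in EU and 82, 120 and 85 counts in PBS. Its mean share was 0.784 ± 0.308 CPM in EU, against 178 ± 97.6 CPM in PBS (SD, n = 3 each; log2 ratio -7.83). Every EU library lay below every PBS library, by count and by share. Gm10718 (ENSMUSG00000095186) on chromosome 9 had 4, 9 and 13 counts in EU and 29, 42 and 47 counts in PBS, or 0.437 ± 0.108 CPM in EU, against 70.3 ± 28.9 CPM in PBS (SD, n = 3 each; log2 ratio -7.33). Gm10722 (ENSMUSG00000091028), its neighbour in abundance, had 6, 6 and 13 counts in EU and 14, 26 and 23 counts in PBS, or 0.469 ± 0.213 CPM in EU, against 38.7 ± 21.6 CPM in PBS (SD, n = 3 each; log2 ratio -6.37). For Gm10722 the groups were separate by a single count, with 13 in EU replicate 3 and 14 in PBS replicate 1.

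The other 6 models were close to the floor. Gm10717 (ENSMUSG00000095891) had 7, 7 and 7 counts in EU and 5, 17 and 5 counts in PBS. Gm11168 (ENSMUSG00000096385) had 1, 6 and 3 counts in EU and 2, 2 and 10 counts in PBS. Gm10719 (ENSMUSG00000095547) had 4, 2 and 5 counts in EU and 1, 6 and 2 counts in PBS. By count these 3 overlapped between the groups, while by share, which divides the EU counts by far larger totals, all 3 EU libraries lay below all 3 PBS libraries. In PBS 1 count was worth 1.37 to 2.42 CPM, more than any EU share of these 3 models. Any PBS count above 0 in each library therefore gave this separation. Gm10721 (ENSMUSG00000096519) had 2, 1 and 0 counts in EU and 7, 4 and 1 counts in PBS, and behaved in the same way. Gm17535 (ENSMUSG00000096736) had 0, 3 and 1 counts in EU and 0, 7 and 5 counts in PBS, and Gm10715 (ENSMUSG00000096201) had 1, 0 and 1 counts in EU and 0, 3 and 7 counts in PBS. A PBS count of 0, as in replicate 1 for Gm17535 and Gm10715, has an exact 95% upper limit of 5.70 CPM (3 counts are 4.63 CPM), more than the EU shares of these models, so no separation was detectable there.

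**Figure D4:**
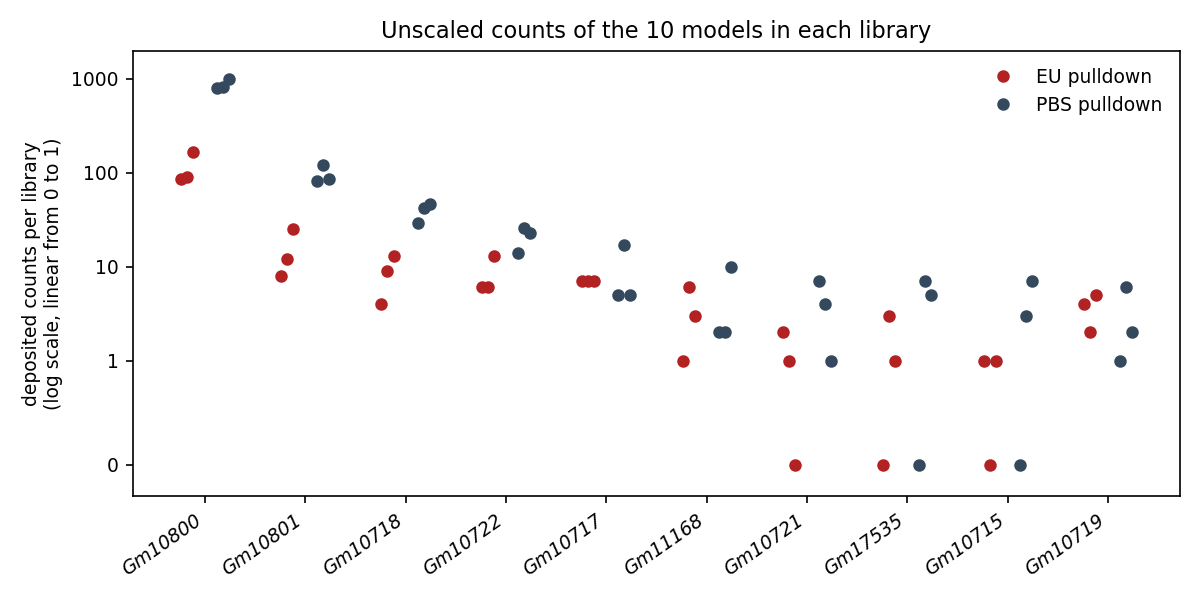
Deposited counts of each model in each library (y axis, log scale that is linear from 0 to 1), with the 3 EU libraries left of the 3 PBS libraries at each model. EU points lie below PBS points for Gm10800, Gm10801, Gm10718 and Gm10722 and mix with them for the other 6 models.

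The separation of the members was read against all genes. By library share, 3.86% of the 27659 genes with any count had all EU libraries below all PBS libraries, and so did 8 of the 10 models, Gm17535 and Gm10715 being the exceptions. For Gm10717, Gm11168, Gm10719 and Gm10721 any count above 0 in each PBS library was enough for this. Among the 12477 genes tested the share was 7.97%, and all 6 tested models were among them. By unscaled counts it was 0.0217%, which is 6 genes. These were Gm10800, Gm10801, Gm10718 and Gm10722 and, named here after their values were seen, Gm14148 with 1, 1 and 0 counts in EU against 2, 2 and 2 in PBS, and Gm15682 with 0, 0 and 0 counts in EU against 1, 1 and 1 in PBS. Gm14148 and Gm15682 are at or under the floor of 3 counts in every library. The models were chosen by this contrast, and nothing is read from these shares beyond the description.

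The fit across all genes places the models at the end of the range. Low-count filtering left 6 of the 10 models among 12477 tested genes. A model that passed only through its PBS level was likely to come out lower in EU. Fitted log2 folds, EU over PBS with TMM scaling, were -7.66 ± 0.53 for Gm10800, -7.60 ± 0.61 for Gm10801, -7.08 ± 0.68 for Gm10718, -6.10 ± 0.98 for Gm10722, -5.31 ± 0.63 for Gm11168 and -5.15 ± 1.07 for Gm10717 (SE, n = 3 each). Without PBS replicate 2, which held 17 of its 27 PBS counts, the fold of Gm10717 was -4.03. The first 5 of these were the 5 lowest of all tested genes, and 6 genes lay below Gm10717. The median over the 6 tested models was -6.59, beside 0.15 over all tested genes, a median that library size alone as the scaling put at -0.01. The edgeR quasi-likelihood test called 0.024% of tested genes lower in EU, which is 3 genes (Gm10800, Gm10801 and Gm10718), and 0% higher, where 531 were lower and 1617 higher at an unadjusted p below 0.05; DESeq2 called 606 lower and 646 higher. Leaving out PBS replicate 1, PBS replicate 2 or PBS replicate 3 brought the number called lower to 0, and leaving out EU replicate 1 brought it to 11. Without EU replicate 2 or EU replicate 3 it was 2. The models were chosen with these counts in view, and those tested, other than Gm10800, passed the filter only through their PBS level. The calls of the models and their place in the order are therefore no test of them.

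The make-up of the sum differed between the groups. Gm10800 took 72.5%, 66.2% and 70.9% of the counts of the 10 models in EU replicates 1 to 3, and 85.3%, 78.4% and 84.4% in PBS replicates 1 to 3. The groups did not overlap, but the 95% intervals of EU replicate 1 (63.6% to 80.3%) and of PBS replicate 2 (75.8% to 80.8%) did. With Gm10801 added, chromosome 2 models made up 79.2%, 75.0% and 81.6% in EU and 93.9%, 89.8% and 91.6% in PBS. Several low models took a larger part of the sum in EU, with Gm10722 at 4.99% ± 0.572 of the sum in EU and 1.96% ± 0.503 in PBS, and Gm10717 at 4.66% ± 1.48 in EU and 0.855% ± 0.664 in PBS (SD, n = 3 each). Gm10801 was close to even, at 8.72% ± 2.01 in EU and 9.07% ± 2.17 in PBS. These shares rest on sums of 120 to 234 counts in EU and 951 to 1189 counts in PBS.

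**Figure D5:**
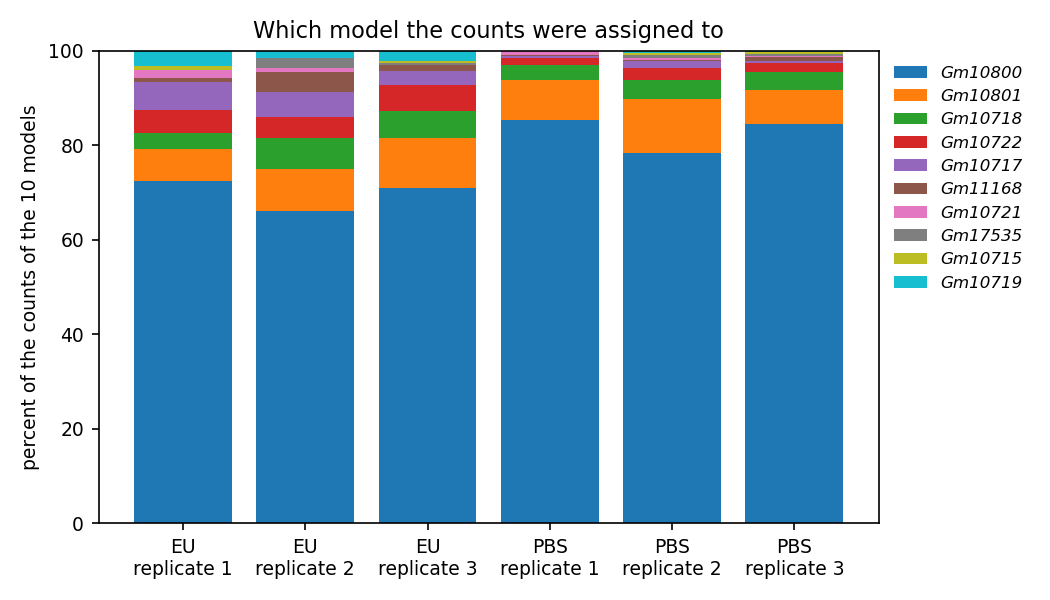
Share of each model (coloured segments, y axis, percent) in the counts of the 10 models, one bar per library with EU left of PBS. The Gm10800 segment reaches 66.2% to 72.5% in EU and 78.4% to 85.3% in PBS.

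Among replicates the sum of the 10 models varied less than the library totals. In EU the highest total was 2.77 times the lowest, while the highest sum was 1.95 times the lowest. In PBS the totals spanned 1.77 times, and the sums 1.25 times. This held for Gm10800, at 1.91 times in EU and 1.24 times in PBS, but not for most single models. Counting models with a library at 0, the counts of 6 of the 10 in EU and of 7 of the 10 in PBS spread wider than the totals, such as Gm10718 at 3.25 times in EU and Gm10717 at 3.40 times in PBS. By share, the deepest EU library, replicate 2, had the lowest share for 7 of the 10 models, and the shallowest PBS library, also numbered 2, had the highest share for 7 of the 10. The unscaled sums did not put these libraries at an extreme, with 136 counts in EU replicate 2 between 120 and 234, and 1050 counts in PBS replicate 2 between 951 and 1189.

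Per length, Gm10800 and Gm10801 came first and second in both groups, followed by Gm10718 and Gm10722. Divided by the annotated exon length, Gm10800 led with 9.87 ± 4.37 CPM per kilobase in EU and 2334 ± 600 CPM per kilobase in PBS (SD, n = 3 each), and it stood clear of the next model in every library of either group. Gm10801 came next with 1.56 ± 0.611 CPM per kilobase in EU and 353 ± 194 CPM per kilobase in PBS. Gm10718 had 0.642 ± 0.158 CPM per kilobase in EU and 103 ± 42.4 in PBS, and Gm10722 had 0.720 ± 0.327 in EU and 59.4 ± 33.1 in PBS. The libraries of Gm10718 and Gm10722 overlapped in both groups, and those of Gm10801 and Gm10722 in EU. The other 6 models lay at 0.0524 to 0.131 CPM per kilobase in EU and 3.48 to 11.8 in PBS, and neighbours in that order overlapped throughout. Their order differed between the groups, with Gm10719 in place 5 in EU and 10 in PBS, Gm17535 in place 9 in EU and 5 in PBS, and Gm10715 in place 10 in EU and 7 in PBS.

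Of 3196 genes with at least 100 counts over the PBS libraries, 5 were taken whose profile over the 6 libraries was most like that of the summed models. Likeness was the root-mean-square difference of centred log2(CPM + 1) values. They were ENSMUSG00002075501, whose ID was not paired with a symbol (difference 1.69), Gm28439 (1.77), mt-Atp6 (1.88), Gm10925 (1.90) and Gm29216 (1.92). Mitochondrially encoded mt-Atp6, a subunit gene of ATP synthase, had 15.6 ± 8.93 CPM in EU, against 224 ± 32.5 CPM in PBS (SD, n = 3 each; log2 ratio -3.84). Gm28439, Gm10925 and Gm29216 are annotated as unprocessed pseudogenes on chromosome 1, and Gm28439 had 13.0 ± 8.66 CPM in EU and 212 ± 11.0 CPM in PBS. Sequence shared among these pseudogenes and mt-Atp6 was not examined, so their values may not be independent. ENSMUSG00002075501 had 42.4 ± 36.6 CPM in EU and 708 ± 123 CPM in PBS. The log2 ratios of the 5 ran from -4.06 to -3.82, against -7.67 for the summed models, and by unscaled counts mt-Atp6 was higher in EU, with 245, 224 and 300, against 155, 77 and 179 in PBS.

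Other predicted models were summed for comparison. The 8291 other Gm-numbered models with any count, a comparison added after the values were seen, summed to 8579 ± 550.1 CPM in EU, against 13080.3 ± 826 CPM in PBS (SD, n = 3 each), and 2.36% of them had all EU libraries below all PBS libraries by share. For the 393 of them annotated as protein-coding, as the 10 models are, the sums were 678 ± 48.0 CPM in EU and 982 ± 135 CPM in PBS, with 1.78% separated in that direction.

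Chemoreceptor genes, for smell, taste and pheromones, served as a group that neural progenitors are not known to express. The 1795 genes together had 49.7, 46.6 and 60.1 CPM in EU replicates 1 to 3, and 113, 319 and 174 CPM in PBS replicates 1 to 3. These sums rest on few genes, with a count in 49, 64 and 61 of them in EU and in 15, 18 and 24 in PBS. All 3 EU libraries lay below all 3 PBS libraries, with means of 52.1 ± 7.04 CPM in EU, against 202 ± 106 CPM in PBS (SD, n = 3 each; log2 ratio -1.96; two-sided exact permutation p = 0.1, which is as low as 3 against 3 can go). PBS replicate 2 was highest here as it was for Gm10800. By count the chemoreceptor genes were higher in EU, at 475, 1235 and 1413, against 73, 132 and 127 in PBS, whereas the models were lower. What these genes and the models have in common was not tested.

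Genes whose products pack, bind or modify pericentromeric heterochromatin were measured in the same libraries. Of 32 listed genes 30 were tested, and the edgeR quasi-likelihood test called 0 lower and 0 higher at an adjusted p below 0.05. Of all tested genes it called 0.024% lower and 0% higher. At an unadjusted p below 0.05 there were 0 lower, where 4.26% of all tested genes were, and 3 higher, where 13% were. DESeq2 called 0 of 31 listed genes, beside 606 lower and 646 higher among 27659 genes. Of the 30, 9 had a negative and 21 a positive fold, beside 5424 negative and 7053 positive over all 12477, with a median log2 fold of 0.19 beside 0.15 over all tested genes. Levels of these genes are given after TMM scaling. Cbx5, which encodes HP1 alpha, had the lowest p, at 692 ± 209 CPM in EU, against 392 ± 48.1 CPM in PBS (SD, n = 3 each; log2 fold 0.82 ± 0.26 SE, edgeR adjusted p = 0.136). Dnmt1, the maintenance DNA methyltransferase, had 80.8 ± 46.0 CPM in EU and 21.7 ± 13.8 CPM in PBS (edgeR adjusted p = 0.160). EU replicate 2 was highest for both genes. Cbx5 had 604, 931 and 541 CPM in EU replicates 1 to 3, and Dnmt1 had 51.4, 134 and 57.3 CPM. The PBS counts of Dnmt1 were 21, 3 and 20. Sirt6, a histone deacetylase, had 11.8 ± 1.61 CPM in EU and 3.03 ± 0.869 CPM in PBS (edgeR adjusted p = 0.286). Its unscaled counts were 107, 292 and 255 in the deeper EU libraries. In PBS they were 2, 1 and 3, at or under the floor of 3 counts. Cbx3, which encodes HP1 gamma, had 69.2 ± 5.81 CPM in EU and 126 ± 64.3 CPM in PBS (edgeR adjusted p = 0.305). None of the 4 passed the test, and a p that misses the threshold does not show that levels were equal.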

How the data were processed

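RNA was measured in 6 pulldown libraries, 3 EU and 3 PBS, grouped by the labels. The members and gene lists were chosen with earlier results of these data known. The authors deposited whole-number counts for 55416 Ensembl gene IDs, not normalized, in 6 columns that all belong to a sample. Per the labels' protocols, DNase I removed genomic DNA and a total RNA kit made the libraries. Tools listed in the submitters' processing notes, without roles, are featureCounts 2.0.1, STAR 2.7.10b, UMI-tools 1.1.2 and bcl2fastq 2.20.0, with the build GRCm39, and the sources used here give no strand or multiple-match setting.

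Symbols (52083 IDs) came from a gene name table, and classes, exon lengths and transcripts from GENCODE M21 on GRCm38, an earlier build than that of the counts, so no genome coordinates are given and lengths may differ from those counted.

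The main fit used edgeR 4.0.16 (R 4.3.3), its quasi-likelihood test, on deposited counts with filterByExpr, TMM factors, full deposited totals as library sizes and group as the only term, with Benjamini-Hochberg adjustment and a threshold of 0.05. SE is the absolute log2 fold over the square root of F. Means of unscaled shares use deposited totals. Scripts were tested on simulated data. For the fit, simulated libraries all had the EU common dispersion (edgeR's measure of spread between replicates), 0.080. That of PBS was 0.910, so the simulation did not cover unequal spread. The main fit did not model spread separately for each group either. The effect of the unequal spread on its SEs and calls was not tested. No 2 libraries were copies, since replicates differed by 13.0 to 119 times sampling noise (chi-square per degree of freedom). Named genes were the 10 models, every gene with at least 5% of its words shared, the 5 genes most alike in profile, the 4 heterochromatin genes with the smallest p, the most abundant gene and Malat1. ENSMUSG00000119584, the most abundant gene, took 9.64% to 21.1% of EU and 13.2% to 19.8% of PBS counts, and Malat1 took 2.29% to 2.76% of EU and 1.98% to 2.27% of PBS counts. The chromosome split, the printed window and shift, the T content, the other Gm models and the comparison of unscaled counts were chosen after values were seen.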

Additional observations from a re-analysis of the deposited data

How the results depend on the processing

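The log2 ratio of the summed shares stayed between -7.96 and -6.98 under every alternative run (another denominator, Gm10800 left out, Gm10720 added, each library left out), with -7.96 to -7.39 when a library was left out. The 59 alternative folds of the tested models ran from -8.11 (Gm10800 without EU replicate 1) to -4.03 (Gm10717 without PBS replicate 2) and none changed sign. The number of genes called lower, 3 as reported, was 40 with library size alone, 7 with DESeq2 size factors in edgeR, 336 without a low-count filter, 606 with DESeq2 1.42.0, and 0 to 11 when a library was left out. The number called higher, 0 as reported, was 3, 0, 121 and 646 under the same 4 settings, and 0 to 0 when a library was left out. With the replicate number as a block 49 genes were called lower and 148 higher. Correlations of deviations between libraries of equal number were small, at 0.07, 0.05 and 0.03, but each library correlated best with its own number. Pairs of unequal number lay between -0.05 and -4e-04. These values do not settle whether the numbers mark pairs, and the main fit used none. The cause of the moves in the numbers of called genes was not tested. The 0 calls among the heterochromatin genes stood under every alternative, DESeq2 included. In the main fit, with 3 of 12477 genes called, 0 of 30 was close to fixed in advance. The chemoreceptor log2 ratio of -1.96 was -2.24 to -1.46 when a library was left out, and 3 sequence-sharing genes were found with either word length. PBS depth limits the 6 lower models, whose counts lie near the floor.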
